A study of Mus musculus with 31 samples.

Results

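Genes that mark GABAergic interneurons, and the neuropeptides these cells release, were examined in hippocampi of P301S transgenic mice. The genes were the GABA-synthesizing enzymes Gad1 and Gad2, the vesicular GABA transporter Slc32a1, the calcium-binding proteins Pvalb and Calb2, the neuropeptides Sst, Vip, Npy and Cck, and the extracellular glycoprotein Reln. They were chosen by name, and all 10 were present among the 48795 genes of the hippocampal count table and passed the filter on low counts, which left 16453 genes for testing. RNA-seq measured 1 library per mouse in 7 non-transgenic (Ntg) mice, 3 female and 4 male, and 6 P301S mice, 3 female and 3 male, at 8 to 9 months of age per the sample labels, while the methods of the paper state a slightly older age. P301S mice express human tau with the P301S mutation under the mouse prion promoter, so the transgene is active in many neuron types, and the Ntg mice lack it. The paper's methods describe the mice as litters of a cross of P301S with Cgas-/- mice, and the Cgas genotype of these 13 mice is not stated for this experiment, so it cannot be told apart from the groups where it differed between them. A separate experiment measured primary microglia, grown out of mixed glia from pup cortex with the growth factor GM-CSF, in 6 groups of 3 libraries. Cells of both Cgas genotypes, Cgas+/+ and Cgas-/-, received vehicle, fibrils of tau, or HT-DNA, which is DNA from herring testis.

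GABAergic interneurons make GABA from glutamate with the enzymes that Gad1 and Gad2 encode, and the transporter encoded by Slc32a1 loads it into synaptic vesicles. In the hippocampus these inhibitory cells fall into classes known by what else they express. Parvalbumin cells inhibit the somata of pyramidal cells, somatostatin cells inhibit dendrites, and many cells with vasoactive intestinal peptide or calretinin (Calb2) inhibit other interneurons. Neuropeptide Y is released by several classes and dampens excitation. Cholecystokinin marks a class of basket cells but is also transcribed by pyramidal cells, and reelin is made by Cajal-Retzius cells and by interneurons of the outer layers. Since whole tissue was measured, fewer cells of a class and less RNA per cell cannot be told apart in any value below.

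The promoters of the 4 peptide genes are shown because the peptides include Sst, Vip and Npy. Sst and Vip had the highest correlation of all pairs over the 13 mice, but not without P301S mouse 63, described below. Npy differed between microglial cultures. The sequences are the 150 bases before the RefSeq start of each gene in GRCm38.p6, read 5′ to 3′ on the strand of the gene. Capitals mark the letters TGACG or CGTCA, the core of the cAMP response element (CRE), or the whole element TGACGTCA. The windows are chr16:23890845-23890994 on the minus strand for Sst, chr10:5639068-5639217 on the plus strand for Vip, chr6:49822560-49822709 on the plus strand for Npy and chr9:121495695-121495844 on the minus strand for Cck.
Sst: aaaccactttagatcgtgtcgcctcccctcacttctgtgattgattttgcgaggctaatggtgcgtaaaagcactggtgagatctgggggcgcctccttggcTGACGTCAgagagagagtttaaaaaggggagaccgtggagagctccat
Vip: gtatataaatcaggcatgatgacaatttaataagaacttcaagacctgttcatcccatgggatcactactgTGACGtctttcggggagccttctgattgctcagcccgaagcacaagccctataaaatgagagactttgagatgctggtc
Npy: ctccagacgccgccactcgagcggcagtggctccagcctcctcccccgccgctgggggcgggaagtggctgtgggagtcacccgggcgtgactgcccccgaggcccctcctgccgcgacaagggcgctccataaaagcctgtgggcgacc
Cck: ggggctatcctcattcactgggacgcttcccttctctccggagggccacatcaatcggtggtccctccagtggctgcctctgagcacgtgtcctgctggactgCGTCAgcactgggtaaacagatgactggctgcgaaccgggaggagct

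Sst carried the whole CRE, TGACGTCA, at bases -48 to -41 from its start, and the same 8 letters stood in 1.36% of the 32851 promoter windows of this length in the RefSeq table. The CRE core, TGACG on either strand, which the whole element contains, stood in the windows of Sst, Vip, Cck and Gad2 and in 13.3% of all windows. The window of Vip held it at -79 to -75 and that of Cck at -47 to -43. The letters TATAAA, searched on both strands, stood at -30 to -25 and -147 to -142 in Vip and at -141 to -136 in Gad1, and 7.57% of all windows held them. None of these letters stood in the 150 bases before Npy. Of the 10 genes, 9 had an entry in the promoter table, and Calb2 had none.

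The libraries held 25953296 to 35779977 counts per mouse, and Mapt, the tau gene, checked the labels. It had 519 to 642 normalized CPM in Ntg mice (median 565), which are read counts relative to the scaled library size, and 858 to 1125 in P301S mice (median 991), with no overlap (log2 fold change 0.80, standard error 0.07, edgeR adjusted p = 0.000122). The library of P301S mouse 63 stood apart. It carried transcripts of cerebellar neurons, with 575 normalized CPM of Cbln3, a granule cell gene, against at most 6.35 in the other 12 mice, 208 of Gabra6 against at most 2.07, and 125 of the Purkinje cell gene Pcp2 against at most 4.91. Summed over 12 cerebellar markers, of which 11 passed the filter, its level was 2513 normalized CPM, whereas the other P301S mice lay between 62.8 and 166 and the Ntg mice between 49.9 and 126.5. These markers were listed after the values of this library had been seen. Mouse 63 had the highest level of 13 mice for Pvalb, Calb2 and Reln and the lowest for Sst, Vip and Npy. The fold changes of the 10 genes, the medians of the gene lists of inhibitory transmission and the main correlations are therefore also given without it.

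None of the interneuron genes and neuropeptides passed the test between P301S and Ntg hippocampi. In edgeR's quasi-likelihood test, Benjamini-Hochberg adjustment ran over the whole table, and a call required adjusted p below 0.05 together with a log2 difference of more than 0.5. Of the 10 genes, 0 were called, against 1.36% of all genes tested, with 217 genes higher (1.32%) and 6 lower (0.0365%). The lowest adjusted p was 0.214, and with the Wald test of DESeq2, which also called 0 of them, it was 0.173. At an unadjusted p under 0.05 stood 2 of the 10, Pvalb and Cck, beside 15.9% of all genes tested. Without mouse 63, 0 of the 10 were called, against 3.39% of genes, and 3 had an unadjusted p under 0.05, Vip, Npy and Cck, beside 19.2% of genes. The log2 fold changes of 8 genes were positive and those of Sst and Cck negative, with a median of 0.20 beside 0.0013 over all genes tested. Without mouse 63, 7 were positive and the median was 0.13. For each of the 10 genes the levels of the groups overlapped, whereas 0.608% of all genes tested had groups that did not.

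**Figure D1:**
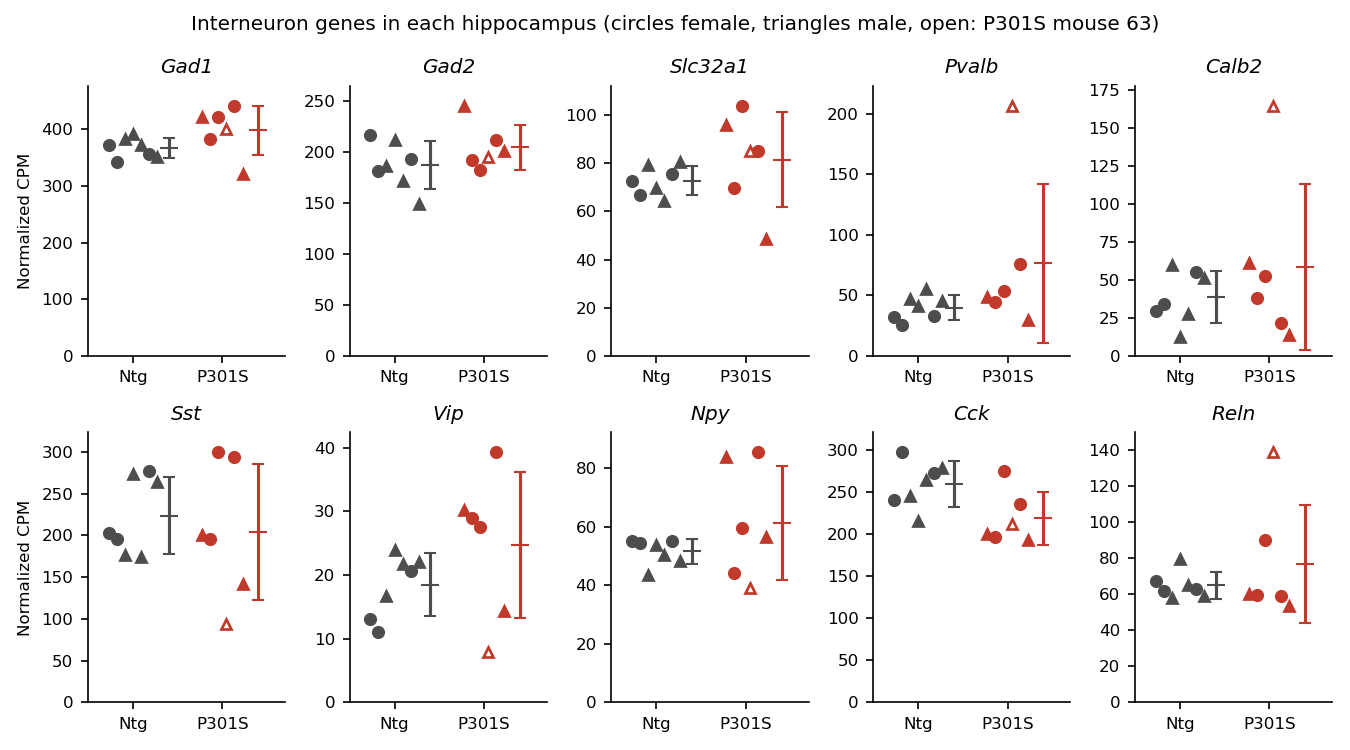
Normalized CPM (y axes, from 0) of the 10 genes in each Ntg mouse (grey, n = 7) and P301S mouse (red, n = 6), with circles for females, triangles for males, an open symbol for P301S mouse 63 and bars for the mean and SD of each group. The groups overlap in every panel, and mouse 63 lies above all other mice for Pvalb, Calb2 and Reln.

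The genes of GABA synthesis and vesicle loading had small positive log2 fold changes that did not pass the test. Gad1 (chr2:70553072-70602014, plus strand, GRCm38), which encodes the larger of the GABA-synthesizing enzymes, had 341.6 to 392.3 normalized CPM in Ntg mice (median 373) and 320.5 to 441 in P301S mice (median 411). Its P301S values spread on both sides of the Ntg range, with 4 mice above it and mouse 77 below it. The log2 fold change was 0.12 (standard error 0.07, 95% interval -0.04 to 0.27, edgeR adjusted p = 0.4785), and 0.11 without mouse 63 (adjusted p = 0.472). Gad2 (chr2:22622205-22693874, plus strand), which encodes the form found at synaptic terminals, had 149 to 217 normalized CPM in Ntg mice (median 186) and 182 to 245 in P301S mice (median 198). All but mouse 29 of the P301S group lay within the Ntg range (log2 fold change 0.13, standard error 0.09, 95% interval -0.07 to 0.33, edgeR adjusted p = 0.553). Slc32a1 (chr2:158610767-158615748, plus strand), the transporter, had 64.4 to 80.5 normalized CPM in Ntg mice (median 72.7) and a wider range of 48.6 to 104 in P301S mice (median 85.2). Here too 4 P301S mice lay above and mouse 77 lay below all Ntg mice, and the log2 fold change was 0.16 (standard error 0.14, 95% interval -0.13 to 0.46, edgeR adjusted p = 0.633). Without mouse 63 the log2 fold changes of Gad2 and Slc32a1 were 0.14 and 0.15. The intervals of these 3 genes with all mice end below a log2 fold change of 0.5 in both directions.

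The calcium-binding proteins gave the widest differences in level, and both rested on mouse 63. Pvalb (chr15:78191114-78206400, minus strand), which encodes the calcium buffer parvalbumin, had 25.2 to 55.4 normalized CPM in Ntg mice (median 40.9). In the P301S mice it had 29.9 in mouse 77, 44.4 in mouse 36, 48.4 in mouse 29, 53.5 in mouse 43, 76.0 in mouse 65 and 206.5 in mouse 63. Mice 63 and 65 lay above all Ntg mice and the other 4 within their range. The log2 fold change was 0.94 (standard error 0.37, p = 0.0237, edgeR adjusted p = 0.219), and an exact two-sided permutation test of the mean log2 level gave p = 0.110, where 0.00117 is the smallest that 7 mice against 6 allow. Without mouse 63 it was 0.34 (standard error 0.22, 95% interval -0.12 to 0.80, edgeR adjusted p = 0.4285). Calb2 (chr8:110137502-110168210, minus strand), which encodes calretinin, had 12.4 to 60.05 normalized CPM in Ntg mice (median 34.4). In the P301S mice it had 13.5 in mouse 77, 21.9 in mouse 65, 37.8 in mouse 36, 52.6 in mouse 43, 60.8 in mouse 29 and 164.2 in mouse 63. Mouse 63 lay far above all Ntg mice and mouse 29 just above the highest of them, and the other 4 P301S mice lay within the Ntg range. The log2 fold change was 0.60 with all mice (standard error 0.49, edgeR adjusted p = 0.618) and -0.05 without mouse 63 (standard error 0.39, 95% interval -0.90 to 0.80, edgeR adjusted p = 0.967). Parvalbumin and calretinin are also made by cerebellar neurons, and the cerebellar markers of mouse 63 are given above. Their part in the levels of Pvalb and Calb2 was not tested.

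None of the neuropeptides passed the test. For Cck, 4 of 6 P301S mice lay below all Ntg mice. For Vip and for Npy, 4 of 6 lay above all Ntg mice and mouse 63 lay below them. The share of all genes with as many mice outside the Ntg range was not counted. Such counts, here and for the other genes, are therefore not read as a result. Cck, which encodes cholecystokinin, had 215 to 297 normalized CPM in Ntg mice (median 265). In the P301S mice it had 193 in mouse 77, 196 in mouse 36, 200.1 in mouse 29, 212.5 in mouse 63, 235 in mouse 65 and 275 in mouse 43. The 4 lowest P301S mice lay below all Ntg mice, and mouse 43 was the only P301S mouse above the Ntg median. P301S minus Ntg gave a log2 fold change of -0.24 (standard error 0.10, p = 0.0225, edgeR adjusted p = 0.214, exact two-sided permutation p = 0.0326). It was -0.24 without mouse 63 as well (adjusted p = 0.232), and it had an adjusted p of 0.0381 without P301S mouse 43, where its log2 fold change of -0.32 was not beyond 0.5. Excitatory neurons also transcribe Cck. The summed level of their markers was 5282 to 7536 normalized CPM in P301S and 7637 to 11210 in Ntg mice, without overlap, and 5 of 6 markers had negative log2 fold changes (median -0.30), of which 0 were called. With their mean log2 level as a covariate the log2 fold change of Cck was -0.08 (edgeR adjusted p = 0.9999). The same covariate took the calls over all genes from 217 higher and 6 lower to 4 and 0. Because the summed markers separated the groups, this fit cannot tell their level apart from the genotype. The part of these markers in the level of Cck was not tested.

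Vip, which encodes vasoactive intestinal peptide, had 13.1, 11.1, 16.7, 24.0, 21.8, 20.6 and 22.1 normalized CPM in Ntg mice 35, 46, 55, 61, 62, 68 and 71. In the P301S mice it had 27.6 in mouse 43, 28.9 in mouse 36, 30.3 in mouse 29 and 39.3 in mouse 65, all above every Ntg mouse, and 14.3 in mouse 77 and 7.88 in mouse 63. The log2 fold change was 0.42 with all mice (standard error 0.30, edgeR adjusted p = 0.557). Without mouse 63 it was 0.60 (standard error 0.23, 95% interval 0.11 to 1.10, exact two-sided permutation p = 0.0657), and the edgeR adjusted p of 0.168 did not pass the threshold. Npy had 43.6 to 55.3 normalized CPM in Ntg mice (median 53.9), a narrow range, against 39.1 to 85.4 in P301S mice (median 58.0). Mice 29 and 65 had 83.7 and 85.4, mice 43 and 77 had 59.4 and 56.5, mouse 36 had 44.2 and mouse 63 had 39.1. Thus 4 P301S mice lay above the Ntg range and mouse 63 below it, and the SD was 19.5 in P301S against 4.37 in Ntg mice. For Npy this gave a log2 fold change of 0.25 (standard error 0.16, edgeR adjusted p = 0.502), and 0.35 without mouse 63 (standard error 0.14, edgeR adjusted p = 0.1935, exact two-sided permutation p = 0.109). Sst, which encodes somatostatin, had 175 to 276.5 normalized CPM in Ntg mice (median 202.5) and 94.1 to 299 in P301S mice (median 198). Here 2 P301S mice lay above and 2 below all Ntg mice. Its log2 fold change was -0.13 (standard error 0.23, edgeR adjusted p = 0.854), and 0.017 without mouse 63 (adjusted p = 0.977).

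Reln (chr5:21884454-22344702, minus strand), which encodes a secreted protein that guides neuronal layering and modulates synapses, had 57.9 to 79.5 normalized CPM in Ntg mice (median 63.02) and 53.4 to 138 in P301S mice (median 59.7). Mouse 63 had 138 and mouse 43 had 89.8, both above the Ntg range, and mouse 77 lay below it with 53.4. Its log2 fold change was 0.24 (standard error 0.20, edgeR adjusted p = 0.611), and -0.012 without mouse 63 (standard error 0.12, 95% interval -0.27 to 0.25, edgeR adjusted p = 0.9747). Reelin is abundant in cerebellar granule cells, and the part of the cerebellar transcripts of mouse 63 in its level was not tested.

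**Figure D2:**
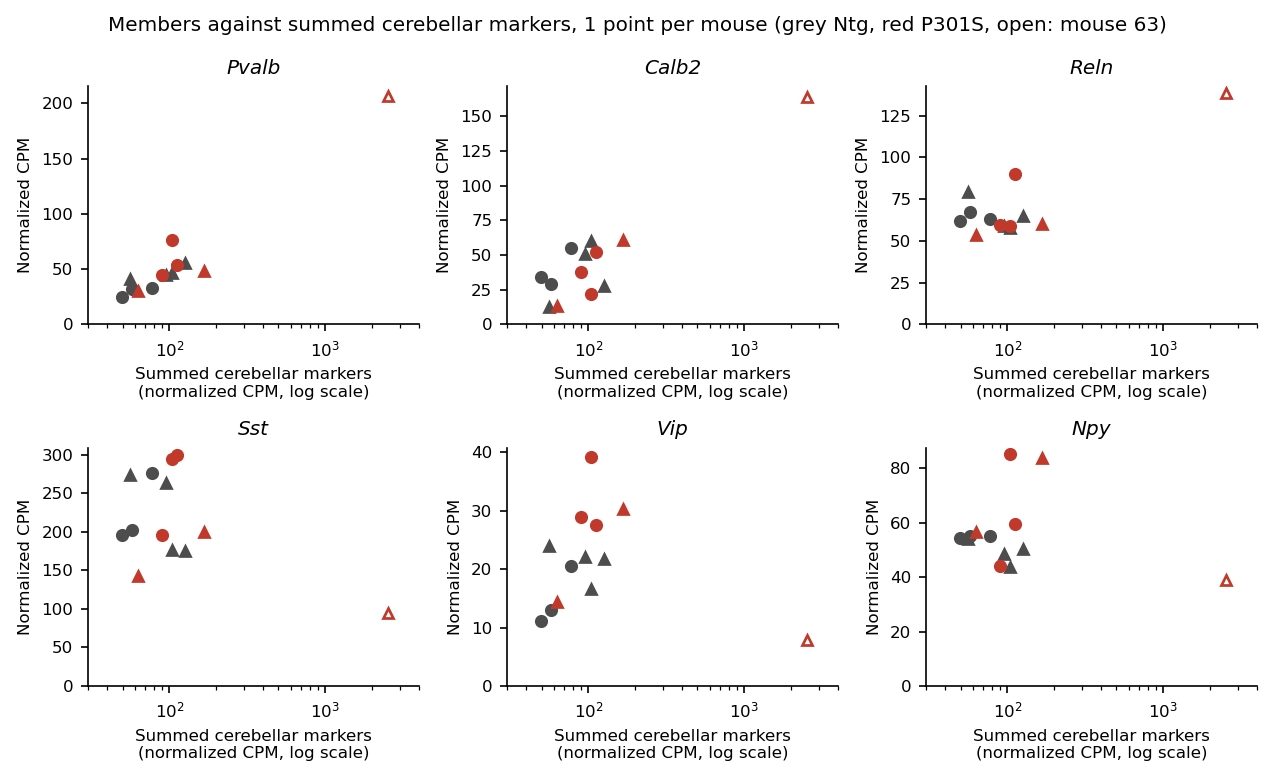
Normalized CPM (y axes) of 6 of the genes in each of 13 mice against the summed normalized CPM of 12 cerebellar markers (x axes, log scale), with Ntg in grey, P301S in red, circles for females and triangles for males. P301S mouse 63 (open) lies apart at 2513, with the highest Pvalb (206.5), Calb2 (164.2) and Reln (138) and the lowest Sst (94.1), Vip (7.88) and Npy (39.1), whereas the other 12 mice lie between 49.9 and 166.

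**Figure D3:**
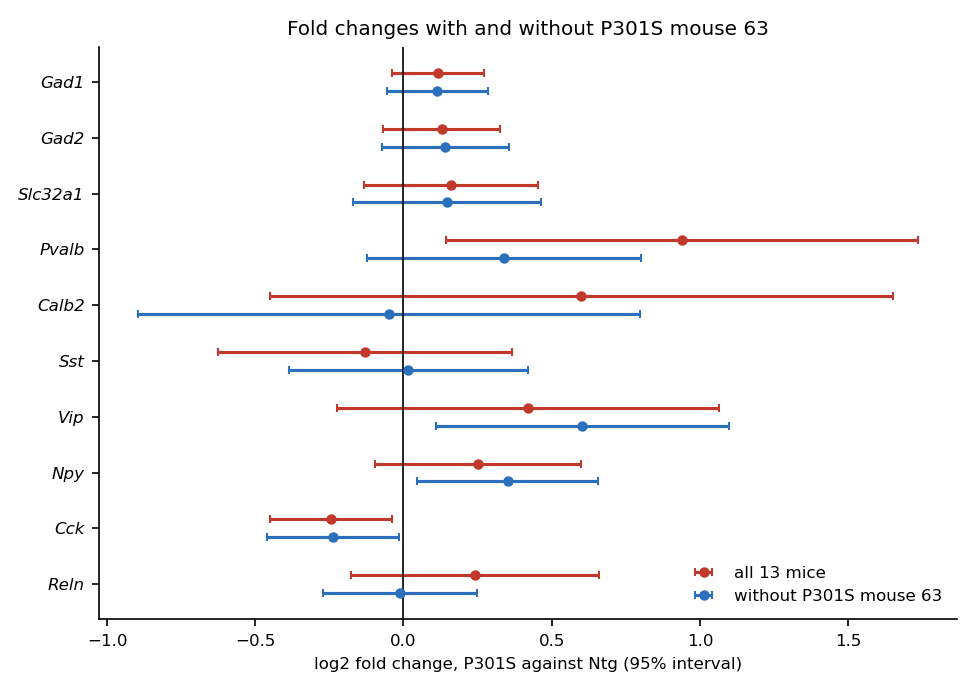
Log2 fold changes of P301S against Ntg mice (x axis) with 95% intervals from edgeR for the 10 genes, with all 13 mice (red) and without P301S mouse 63 (blue). Without it Pvalb moved from 0.94 to 0.34, Calb2 from 0.60 to -0.05 and Reln from 0.24 to -0.01, while Vip moved from 0.42 to 0.60.

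The other genes of inhibitory transmission were examined as lists, and none of their members was called with all mice. The GABA-A receptor subunits, ligand-gated chloride channels, had negative log2 fold changes for 10 of 12, with a median of -0.18 beside 0.0013 over all genes tested and of -0.18 without mouse 63. The lowest adjusted p belonged to Gabra5 (log2 fold change -0.44, standard error 0.16, edgeR adjusted p = 0.191). Both GABA-B receptor subunits, which form a G protein-coupled receptor, were negative too, with -0.18 for Gabbr1 (adjusted p = 0.204) and -0.18 for Gabbr2 (adjusted p = 0.343), and a median of -0.21 without mouse 63. The 3 genes of the inhibitory postsynaptic scaffold had a median of -0.10, or -0.13 without mouse 63, and among them Nlgn2, an adhesion protein of inhibitory synapses, had -0.10 (adjusted p = 0.648). Of the 5 genes of GABA uptake and breakdown, 3 were negative, with the transporters Slc6a13 (log2 fold change -1.03, standard error 0.44, edgeR adjusted p = 0.264) and Slc6a11 (-0.20, adjusted p = 0.514) first and a median of -0.09 both with all mice and without mouse 63. Slc6a13 had 2.84 to 20.02 normalized CPM in Ntg mice (mean 6.31, SD 6.29, n = 7) and a mean of 3.08 in P301S mice (SD 0.391, n = 6), and only 2 P301S mice lay below all Ntg mice.

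Transcription factors of interneurons leaned the other way, with 10 of 13 log2 fold changes positive and a median of 0.20, or 0.26 without mouse 63. Among them Maf, which acts in interneurons of the medial ganglionic eminence, had a log2 fold change of 0.24 (standard error 0.11, edgeR adjusted p = 0.297). Microglia transcribe genes of this list as well, which summed to 464 to 495 normalized CPM in the Cgas+/+ microglial cultures. Of 6 microglial markers, 1 was called higher in P301S mice with all mice. The part of microglia in the levels of the transcription factors was not tested. The microglial marker called with all mice was C1qa (log2 fold change 1.94, edgeR adjusted p = 0.03025). Of the 6 microglial markers, 4 were called without mouse 63, with Csf1r, Cx3cr1 and C1qa among them. P2ry12 and Tmem119 were negative, with -0.15 and -0.06 with all mice and -0.12 and -0.01 without mouse 63. The summed level of the 6 was 352 to 432.5 normalized CPM in Ntg and 366 to 1051 in P301S mice. Astrocyte markers had positive log2 fold changes for 5 of 5, led by Gfap (2.22, standard error 0.37, adjusted p = 0.02065) and Aldh1l1 (0.52, adjusted p = 0.0521), and without mouse 63 Gfap, Aqp4 and Aldh1l1 were called. Of 15 other genes of interneuron subtypes, 6 were positive and 9 negative (median -0.01 with and without mouse 63), and Kcnc2, a potassium channel of fast-spiking cells (-0.26, standard error 0.09, edgeR adjusted p = 0.149), and the nitric oxide synthase Nos1 (-0.48, adjusted p = 0.260) came first.

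Receptors of the peptides and of reelin were negative for 10 of 13 genes (median -0.10, or -0.20 without mouse 63). The lowest adjusted p belonged to Npy5r, a receptor of neuropeptide Y (log2 fold change -0.36, standard error 0.11, edgeR adjusted p = 0.113), and to Sstr3, a somatostatin receptor (-0.40, standard error 0.15, adjusted p = 0.191). Without mouse 63 the neuropeptide Y receptor gene Npy2r had -0.99 (edgeR adjusted p = 0.0404) and was the only one of the 13 called, beside 3.39% of all genes tested. With all mice it had -0.69 (adjusted p = 0.252). Npy1r had 19.4 to 31.2 normalized CPM in P301S and 31.6 to 36.4 in Ntg mice, without overlap, beside 0.608% of all genes tested (log2 fold change -0.28, edgeR adjusted p = 0.204). Other neuropeptides and granins were positive for 9 of 11 (median 0.09, or 0.14 without mouse 63), with Crh (0.70, standard error 0.35, edgeR adjusted p = 0.356) and Nmb (-0.57, adjusted p = 0.369) first. The 4 enzymes that process neuropeptides were negative with all mice (median -0.05, or -0.0064 without mouse 63), and Pcsk2 (-0.07, adjusted p = 0.681) and Pcsk1 (-0.11, adjusted p = 0.848) stood first among them.

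Markers of the other cells and of neighbouring tissue were checked in the same libraries. Of 4 dentate granule cell markers all had negative log2 fold changes (median -0.57), with C1ql3 (-0.58, standard error 0.15, edgeR adjusted p = 0.0712) and C1ql2 (-0.63, adjusted p = 0.202) first and 0 called. Cajal-Retzius cell markers were low, at 5.16 to 16.45 normalized CPM in sum in Ntg and 3.82 to 32.4 in P301S mice, with mouse 63 highest. Lhx1 (log2 fold change 2.02, standard error 0.95, edgeR adjusted p = 0.320) and Ebf3 (0.40, adjusted p = 0.768) came first, and Lhx1 had -0.71 without mouse 63. That mouse had 16.62 normalized CPM of Lhx1, against at most 1.555 in the other mice. The part of its cerebellar transcripts in this level was not tested. Pan-neuronal markers were led by Map2 (-0.35, adjusted p = 0.141) and Rbfox3 (-0.06, adjusted p = 0.844), excitatory markers by Camk2a (-0.45, adjusted p = 0.132) and Slc17a7 (-0.35, adjusted p = 0.153), and oligodendrocyte markers by Mag (0.57, adjusted p = 0.102) and Mog (0.44, adjusted p = 0.247). None of the striatal markers (Ppp1r1b 0.12, adjusted p = 0.780), thalamic markers (Rgs16 0.43, adjusted p = 0.396 and Ramp3 0.45, adjusted p = 0.413) or choroid plexus markers (Kl -0.31, adjusted p = 0.850 and Ttr -0.35, adjusted p = 0.894) was called. Of 8 neocortical markers, listed after the data were seen, 0 were called as well (Foxp2 0.64, adjusted p = 0.234 and Bcl11b -0.51, adjusted p = 0.270).

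Whether the genotype difference itself depended on sex was tested with an interaction term. In edgeR's quasi-likelihood test 0 genes of the table passed an adjusted p of 0.05 (0.0%), although 3897 had an unadjusted p under 0.05 (23.7%) and the Wald test of DESeq2 called 1092. Among the interneuron genes, Vip and Sst had an unadjusted p under 0.05. In females Vip had 27.6 to 39.3 normalized CPM in the 3 P301S mice and 11.1 to 20.6 in the 3 Ntg mice. In males the ranges were 7.88 to 30.3 in P301S and 16.7 to 24.0 in Ntg mice and overlapped. The male effect minus the female effect was -1.37 on the log2 scale (standard error 0.52, edgeR adjusted p = 0.146), and -1.02 without mouse 63, a male (adjusted p = 0.204). For Sst the female ranges were 195 to 299 in P301S and 195 to 276.5 in Ntg mice, and the male ranges were 94.1 to 200.4 and 175 to 274. Its difference between the effects was -0.84 (standard error 0.37, edgeR adjusted p = 0.199), and -0.60 without mouse 63 (adjusted p = 0.329). Pvalb in females was 44.4 to 76.0 in P301S and 25.2 to 33.1 in Ntg mice, while in males it was 29.9 to 206.5 and 40.9 to 55.4. Its interaction was 0.07 with all mice (edgeR adjusted p = 0.964) and -1.20 without mouse 63 (adjusted p = 0.147). Groups were also apart for Gad1 in females (384 to 441 in P301S, 342 to 373 in Ntg mice) and for Cck in males (193 to 212.5 and 215 to 278). The share of all genes with groups apart within 1 sex was not counted, so no such separation is read as a result. The 7 genes other than Vip, Sst and Pvalb had edgeR adjusted p of the interaction between 0.389 and 0.905 with all mice.

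Variation between mice of one genotype was compared over the 45 pairs of the 10 genes, after the mean of each genotype was removed from the log2 normalized CPM. Pearson's r was positive in 32 pairs (38 without mouse 63), and 0 pairs passed an adjusted p of 0.05 in a permutation within genotype with 100000 resamples, while 4 had an unadjusted p under 0.05. With all mice Sst and Vip had the highest correlation, with r = 0.83 (permutation p = 0.00354, adjusted p = 0.159, n = 13) and Spearman's rho = 0.73 (permutation p = 0.0143, adjusted p = 0.391). Without the pair of mice farthest from the median of Sst, 43 and 63, r was 0.73 (permutation p = 0.0292, adjusted p = 0.658), and without mouse 63 alone it was 0.67. Gad1 and Slc32a1, which encode enzyme and transporter of the same cells, had r = 0.79 (permutation p = 0.0273, adjusted p = 0.554, n = 13) and rho = 0.51 (permutation p = 0.119, adjusted p = 0.644), and r = 0.42 without mice 65 and 77. Gad2 followed neither closely, with r = 0.31 with Gad1 and 0.02 with Slc32a1. For Pvalb and Reln r was 0.74 (permutation p = 0.0493, adjusted p = 0.554, n = 13), with rho = 0.42 (permutation p = 0.213, adjusted p = 0.659), and it was -0.04 without mice 63 and 77 and 0.19 without mouse 63. This relation rested on those mice.

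The mean log2 levels of neocortical, dentate granule cell and excitatory neuron markers were set against each gene, which gave 30 relations. The neocortical markers were listed after the data were seen, so the p-values of their relations are descriptive only. Vip had the only relation of the 30 with an adjusted p under 0.05, to the neocortical markers, with r = 0.88 (permutation p = 0.00081, adjusted p = 0.0243, n = 13) and rho = 0.76 (permutation p = 0.00567, adjusted p = 0.08505). Its r was 0.88 without mice 46 and 77 (permutation p = 0.0129, adjusted p = 0.194) and 0.89 without mouse 63 (permutation p = 0.00201, adjusted p = 0.0603), so r was as high but the adjusted p was above 0.05. Sst had r = 0.80 with the same markers (permutation p = 0.00341, adjusted p = 0.05115, n = 13), rho = 0.82 (permutation p = 0.00241, adjusted p = 0.0723) and r = 0.89 without mice 46 and 77 (permutation p = 0.00411, adjusted p = 0.123). Without mouse 63 its r was 0.74 (permutation p = 0.009, adjusted p = 0.09). Pvalb had r = 0.02 with the neocortical markers over all mice, 0.78 without mouse 63 (permutation p = 0.00727, adjusted p = 0.09) and -0.61 without mice 46 and 77, so its value depended on which mice were included. The summed level of the neocortical markers was 330.5 to 484 normalized CPM in Ntg mice, 332 to 452 in 5 P301S mice and 208 in mouse 63, the lowest of all. Bcl11b was the largest part of this sum, with a mean of 164 in Ntg mice, and the sum is not a measure of the amount of neocortex. The part of these markers in the levels of Sst, Vip and Pvalb was not tested.

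**Figure D4:**
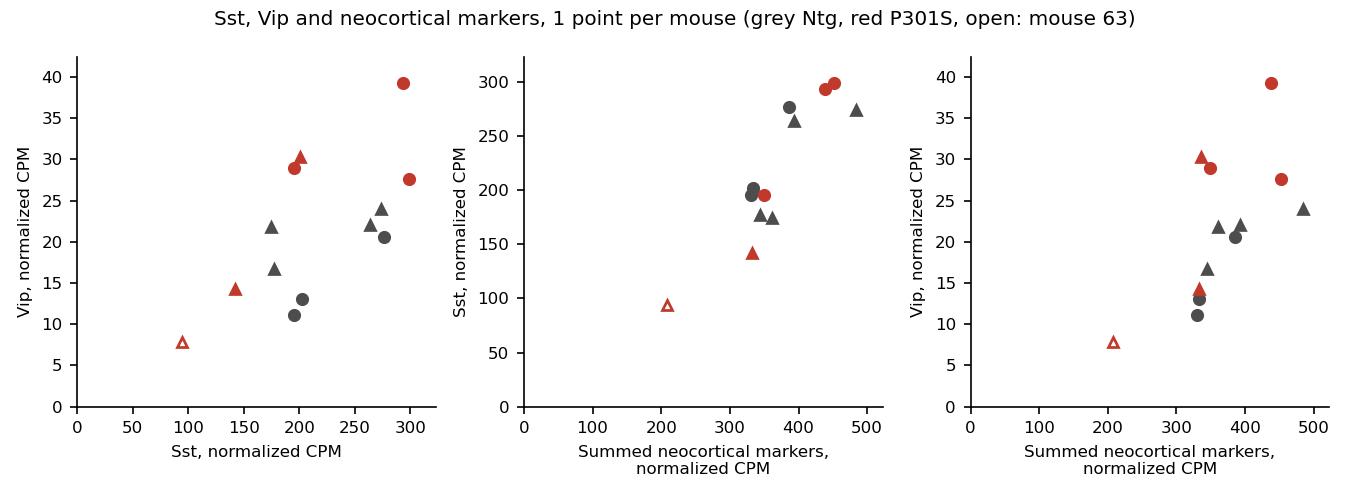
Normalized CPM of Vip against Sst (left), of Sst against the summed normalized CPM of neocortical markers (middle) and of Vip against the same sum (right), with 1 point for each of 7 Ntg (grey) and 6 P301S mice (red), circles for females and triangles for males. P301S mouse 63 (open) is lowest on every axis, with a neocortical sum of 208. The other P301S mice span 332 to 452 and the Ntg mice 330.5 to 484 on that axis.

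For each gene the 3 genes with the highest Pearson's r over the 13 mice, with the genotype mean removed, were taken from 11664 genes with a mean of at least 5 normalized CPM. They are a description with 13 points, and the part of differences in depth or dissection between libraries was not tested. They were Dmp1, Ets2 and Paox for Gad1 (r = 0.91 for Dmp1), Cdca4, Faf2 and Kremen1 for Gad2 (r = 0.85 for Cdca4), and Acd, Arrdc1 and Galt for Slc32a1 (r = 0.95 for Acd). Pvalb was most like Rora, Plcb4 and Ptprm (r = 0.94 for Rora), and Calb2 most like Cited2, Arvcf and Tuba8 (r = 0.91 for Cited2). Sst had Myh7, Cyp46a1 and Ctxn1 (r = 0.96 for Myh7), Vip had Cspg5, Tox and Shisa5 (r = 0.97 for Cspg5), Npy had Irak2, Dlx1 and Rcan1 (r = 0.89 for Irak2), Cck had Csnk1g2, B4galnt1 and Ptov1 (r = 0.92 for Csnk1g2), and Reln had Khnyn, Sbk1 and Cipc (r = 0.94 for Khnyn). None of the 10 genes was among the 3 nearest of another, and the closest in rank was Slc32a1, at place 51 for Gad1. Without mouse 63, 11 of these 30 genes were again among the 3 nearest, with 3 of 3 for Gad2 and 0 of 3 for Pvalb and Reln.

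Primary microglia were examined for the same 10 genes. In their 18 libraries, of 17037459 to 25174764 counts, Pvalb and Vip had 0 counts, and Calb2, Sst and Gad2 had at most 1, 2 and 3. Thus 5 of the 10 genes were at or under 3 counts in every library. Gad1 reached 4 counts, Slc32a1 8 and Reln 11, and Cck had 11 to 39. Npy was the exception, with 496 to 1604 counts in every library.

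Npy differed between microglia of the Cgas genotypes. In Cgas+/+ cells it had 71.1, 69.0 and 82.3 normalized CPM with vehicle, 67.4, 65.8 and 69.8 with tau fibrils, and 78.0, 81.4 and 81.65 with HT-DNA. In Cgas-/- cells it had 28.3, 25.85 and 25.9 with vehicle, 24.5, 21.2 and 23.5 with tau fibrils, and 30.15, 29.1 and 28.5 with HT-DNA. All 9 Cgas-/- libraries lay below all 9 Cgas+/+ libraries, as they did for 11.8% of the 13675 genes tested. With vehicle, Npy was 2.78-fold lower in Cgas-/- cells (log2 fold change -1.47, standard error 0.06, edgeR adjusted p = 5.23e-17), a fit that was added after its values had been seen. A log2 fold change beyond 1 was required for a call in microglia, and 7.35% of the genes tested were called lower in this comparison. The log2 fold change was -1.55 with tau fibrils (adjusted p = 3.17e-17, beside 7.41% of genes called lower) and -1.46 with HT-DNA (adjusted p = 9.14e-18, beside 11.8%). Cgas itself, named Mb21d1 in the table, had 18.8 to 44.4 normalized CPM in Cgas+/+ and 3.76 to 7.45 in Cgas-/- libraries. Nothing states that the 3 libraries of a group came from separate cultures, so these p-values measure the spread between libraries, which may be technical, and a difference between the cultures of each genotype cannot be told apart from the genotype.

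Npy was not called under any treatment. In Cgas+/+ cells the log2 fold change was -0.13 with tau fibrils (edgeR adjusted p = 0.110) and 0.12 with HT-DNA (adjusted p = 0.0963), and in Cgas-/- cells it was -0.21 with tau fibrils (adjusted p = 0.0403, not beyond 1) and 0.13 with HT-DNA (adjusted p = 0.4425). These comparisons share the vehicle libraries of each genotype, and they called 3.41% and 8.08% of all genes in Cgas+/+ cells and 2.73% and 0.0219% in Cgas-/- cells, for tau fibrils and HT-DNA respectively. The tau effect in Cgas-/- minus that in Cgas+/+ cells was -0.08 (95% interval -0.27 to 0.11, edgeR adjusted p = 0.693), and for HT-DNA it was 0.01 (95% interval -0.17 to 0.20, adjusted p = 0.928), beside 0.965% and 6.27% of genes called. Cck was the other of the 10 genes that passed the filter in microglia, and it was not called in any of these comparisons, with a log2 fold change of -0.19 between the genotypes with vehicle (standard error 0.41, adjusted p = 0.728).

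The summed levels of microglial, astrocyte and oligodendrocyte markers were, like Npy, lower in the Cgas-/- cultures, though not every marker was. Tmem119 overlapped, with 8.8 to 19.2 normalized CPM in Cgas+/+ and 10.6 to 15.5 in Cgas-/- libraries, as did Aqp4, Slc1a3 and Gja1. Other lists were lower too, such as interneuron transcription factors (464 to 495 against 215 to 246) and peptide-processing enzymes (45.8 to 57.8 against 21.8 to 28.0). Thalamic markers overlapped (372 to 489 against 367 to 492). The 6 microglial markers summed to 4648 to 5005 normalized CPM in Cgas+/+ and 2831 to 3312 in Cgas-/- libraries, with 1459 to 1630 of C1qa against 788 to 858. The 5 astrocyte markers, none at 0 in every library, summed to 4.46 to 13.65 against 0.636 to 1.76, mostly through Aldh1l1 with 2.90 to 10.8 against 0.251 to 1.19, while Gfap reached at most 1.26 in any library. The 5 oligodendrocyte markers summed to 63.9 to 115 in Cgas+/+ and 50.4 to 54.5 in Cgas-/- libraries, without overlap. The 6 pan-neuronal markers were near 0 in both, at 0.487 to 2.29 against 0.397 to 1.56 in sum. Of the peptide genes that neurons release with Npy, Sst had at most 2 counts and Vip had 0. The part of the microglial, astrocyte and oligodendrocyte markers in the Npy difference was not tested.

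**Figure D5:**
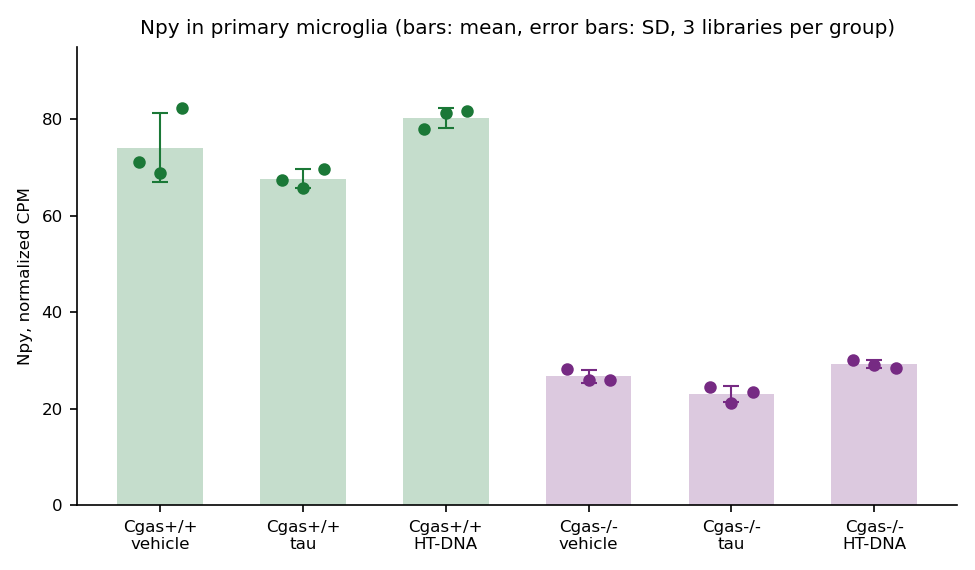
Normalized CPM of Npy (y axis, from 0) in primary microglia of 6 groups, with 1 point per library, bars for the mean of 3 libraries and error bars for the SD. The 9 Cgas+/+ libraries lie between 65.8 and 82.3 and the 9 Cgas-/- libraries between 21.2 and 30.2 under every treatment.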

How the data were processed

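RNA from 13 mouse hippocampi and 18 primary microglia libraries was sequenced, per the labels with a 3′ library kit, which counts reads near transcript ends. The authors deposited raw read counts per gene, not normalized. GRCm38, edgeR and limma are named in the submitters' processing notes, without versions. The aligner, counter, annotation and strand setting are not given in the sources used here, so reads of a gene and an overlapping antisense gene cannot be told apart. Antisense or overlapping genes of Gad1, Slc32a1 and Reln had at most 7 counts in any hippocampal library. The labels and the paper's methods name different RNA kits.

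Hippocampal genes were identified by the gene identifier that carries the symbol in the microglial table (48469 of 48795 matched). Counts were filtered with filterByExpr, scaled by TMM and tested with edgeR's quasi-likelihood F test (edgeR 4.0.16, R 4.3.3) on all 13 mice without covariates, with Benjamini-Hochberg adjustment. Microglia were fitted in the same way over 6 groups. Normalized CPM used TMM-scaled library sizes, and log2 values a prior count of 2. The alternatives were DESeq2 1.42.0, its size factors, no filter, sex or the mean log2 level of excitatory markers as a covariate, no minimum fold change, and leaving out each library. Single genes were tested with exact permutation over mice, and correlations with 100000 permutations within genotype. The edgeR and DESeq2 fits of the hippocampi and the edgeR fit of the microglia were tried on simulated data.

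Each list names the 2 genes with the smallest adjusted p, apart from a few that are not reported here, and the 3 genes most like each interneuron gene were taken from genes with a mean of at least 5 normalized CPM. The genes and lists were chosen with earlier results of these data known. The Npy fits in microglia, and the cerebellar and neocortical lists, were added after the values were seen. Hippocampal libraries held 25953296 to 35779977 counts, which for the 10 genes gave 239 to 12748 counts per library. Promoter sequences came from RefSeq (GRCm38.p6), and gene positions from GENCODE annotation of GRCm38.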

Additional observations from a re-analysis of the deposited data

Results flagged for a closer look

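Pvalb and Calb2 each had 1 P301S mouse far from the other 5. Mouse 63 had 206.5 normalized CPM of Pvalb, where the others lay between 29.9 and 76.0, and 164.2 of Calb2, where the others lay between 13.5 and 60.8. The gap to the nearest mouse exceeded Dixon's 95% limit for 6 values in both. Of 20 groups of values examined, these 2 passed that limit, and chance passes about 1 in 20. The same library carried 2513 normalized CPM of cerebellar markers, against at most 166 in the other mice, and the part of these transcripts in both values was not tested.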

How the results depend on the processing

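With all mice the P301S hippocampi had 217 genes higher and 6 lower. The counts were 531 and 52 with DESeq2, 123 and 3 with sex as a covariate, and 4 and 0 with the excitatory marker mean as a covariate, while 15 were lower with no filter and 20 with no minimum fold change. Leaving out 1 mouse gave 14 to 608 higher and 0 to 65 lower. There were 14 to 24 higher without any 1 of Ntg mice 35, 46, 61, 62, 68 and 71 and P301S mice 29, 36 and 65, with 0 to 2 lower, 608 and 44 without P301S mouse 43, 518 and 44 without P301S mouse 63, and 285 and 65 without P301S mouse 77. None of the 10 interneuron genes was called under any of these settings. Slc32a1 and Calb2 turned negative with the excitatory covariate (log2 fold changes of -0.0035 and -0.30). Without mouse 63, Calb2, Reln and Sst changed sign, and leaving out each mouse in turn gave -0.048 to 0.81 for Calb2, -0.27 to 0.017 for Sst and -0.012 to 0.33 for Reln. The cause was not tested. For the interaction of sex and genotype, 0 genes passed in edgeR and 1092 with DESeq2, and 0 to 1648 when 1 mouse was left out (1648 without P301S mouse 29, 44 without P301S mouse 36 and 3 without Ntg mouse 55).

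No paired analysis was possible because the hippocampal groups share no replicate numbers. In microglia, with the replicate number as a block, the log2 fold change of Npy was -1.47 with vehicle, -1.55 with tau fibrils and -1.46 with HT-DNA. Libraries of the same number did not deviate together (median r = -0.0086 over 45 pairs, 0.0037 over 90 pairs of other numbers), so the number served as a name only. Over 23 alternatives each, the log2 fold change stayed between -1.52 and -1.39, -1.59 and -1.50, and -1.50 and -1.44, with a highest edgeR or DESeq2 adjusted p of 1.44e-10. A group of 3 libraries from cultures of unstated origin, and 6 or 7 mice of 2 sexes, limit the precision of every difference.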
